A study of Mus musculus with 18 samples.

Results

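The genes described here are 39 transcripts of the hypoxia response and of glycolysis, taken from the count table by symbol. All 39 were found among the 23453 symbols of the count table. They fall into 9 roles, with 14 glycolytic enzymes as the largest. The cells were B16F10, a mouse melanoma line of C57BL/6J origin, infected with lentivirus and kept under drug selection for 5 days. Cells named shHrs carried an shRNA in the pLKO.1 vector against Hgs, the gene of Hrs, an endosomal protein that sorts ubiquitinated membrane proteins, and cells named shCTL carried a scrambled shRNA. Each of 2 culture batches had 2 shCTL and 2 shHrs libraries, from cells grown in DMEM with 10% serum at 37 °C and 5% CO2. Another 5 shCTL and 5 shHrs libraries came from tumours of these cells in immunocompetent wild-type C57BL/6 mice, female and 6 to 8 weeks old. The knockdown was driven in the melanoma cells alone, so host cells in a tumour kept their own Hgs. The labels mention no picking of single clones and no oxygen level for the cultures.

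Cells sense oxygen through prolyl hydroxylases, the Egln proteins, which mark the alpha subunits of hypoxia-inducible factors (HIFs) for destruction through the von Hippel-Lindau protein. When oxygen is low the alpha subunits persist, pair with Arnt and bind a short DNA element near their targets. Targets include glucose transporters, glycolytic enzymes, a kinase that holds pyruvate out of mitochondria, and secreted factors such as Vegfa. Melanoma cells are known for high glycolysis, and glycolytic genes are also driven by Myc and by growth signals.

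The core of that element is ACGTG or GCGTG. It was searched on both strands of promoter windows from RefSeq (GRCm38.p6) that reach from 250 bases before to 50 bases after each start. A window with at least 1 match was found for 30 of the 33 members in the table (90.9%), against 46.7% of 27025 genes and 65.7% of 10689 genes with at least 10 counts in 2 or more libraries. By single windows the shares were 38 of 49 for members (77.6%) and 43.8% of 32851 for genes in general. A match of 5 letters is a description of the sequence and not a bound site. Bnip3l, Slc2a3, Ndrg1, Ero1l, Stc1 and Angptl4 had no entry. The 250 bases before the start are shown for 4 members on which the values below turn, 5′ to 3′ on the gene's own strand, with matches of the core on either strand in capitals. Matches can overlap, as in CACGTG, which holds the core once on each strand.
Ankrd37: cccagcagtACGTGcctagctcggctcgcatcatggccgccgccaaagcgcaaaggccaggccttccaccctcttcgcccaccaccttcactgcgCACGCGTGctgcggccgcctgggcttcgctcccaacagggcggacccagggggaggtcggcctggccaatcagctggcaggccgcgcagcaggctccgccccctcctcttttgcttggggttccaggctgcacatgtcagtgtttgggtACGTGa
Bnip3: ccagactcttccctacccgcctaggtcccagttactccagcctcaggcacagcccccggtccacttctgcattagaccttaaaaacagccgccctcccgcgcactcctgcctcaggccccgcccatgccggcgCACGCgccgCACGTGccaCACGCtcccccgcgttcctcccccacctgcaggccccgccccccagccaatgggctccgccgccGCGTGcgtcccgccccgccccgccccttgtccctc
Pgk1: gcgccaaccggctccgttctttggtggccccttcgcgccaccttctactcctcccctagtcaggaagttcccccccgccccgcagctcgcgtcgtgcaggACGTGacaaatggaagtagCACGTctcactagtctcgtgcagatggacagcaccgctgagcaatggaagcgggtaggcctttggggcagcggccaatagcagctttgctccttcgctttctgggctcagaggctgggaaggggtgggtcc
Car9: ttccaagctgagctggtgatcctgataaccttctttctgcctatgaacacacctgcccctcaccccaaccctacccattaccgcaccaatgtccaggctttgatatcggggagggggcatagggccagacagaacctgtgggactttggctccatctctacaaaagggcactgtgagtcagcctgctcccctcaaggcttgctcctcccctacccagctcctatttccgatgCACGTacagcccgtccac
The Ankrd37 stretch (chr8:45999851-46000100, minus strand) had 4 matches, the nearest beginning 6 bases before the start. Bnip3 (chr7:138909507-138909756, minus strand) had 5, Pgk1 (chrX:106186850-106187099, plus strand) had 2, and Car9 (chr4:43506776-43507025, plus strand) had 1, which began 18 bases before the start. No match was found in the windows of Car12, Gpi1 and Tpi1. The starts used here are RefSeq's, while the gene spans given below come from another annotation. By those spans the Ankrd37 stretch, and part of the Bnip3 and Car9 stretches, lie inside the gene.

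Libraries held 17612820 to 27705076 counts. Levels are given as CPM, counts scaled to a common library size after TMM scaling, which corrects for a few abundant genes taking up depth. Replicate libraries were not copies of each other, since chi-square per degree of freedom over genes was 13.8 to 209. Libraries of a group are described as biological repeats, without a word on whether each culture was raised separately. The p-values therefore reflect only how far these libraries scatter, and that scatter may be technical. Hgs was lower in every shHrs library than in every shCTL library of its batch or tissue, with 30.4 to 44.6 CPM against 95.0 to 113 CPM in cultures and 16.1 to 29.2 CPM against 95.8 to 112 CPM in tumours. Its log2 fold change (shHrs minus shCTL) was -1.67 (SE 0.23) in batch 1, -1.30 (SE 0.22) in batch 2 and -2.28 (SE 0.15) in tumours, with adjusted p-values of 0.103, 0.0268 and 0.000106 by edgeR's quasi-likelihood test. The 7 melanocyte lineage genes summed to at least 4331 CPM in every library. Over the 8 cultures together, Mrc1 and C1qa (macrophages), Cd3d (T cells) and Myh1 (muscle) had 0 counts, while other genes of these marker lists did not: Cd68 had 1181 and Lyz2 444, Lck 298, and Ttn 721 and Mylpf 616. Summed levels per culture were 3.09 to 35.02 CPM for 10 macrophage, 0.441 to 6.37 CPM for 7 T cell and 8.07 to 15.3 CPM for 10 muscle genes.

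In batch 1, 13 of the 14 glycolytic enzymes stood lower with shHrs than with shCTL without overlap (background 16.8% of genes). In batch 2, 10 of the 14 stood higher without overlap (background 35%) and 3 lower (background 34.7%). The summed level of the 14 glycolytic enzymes was 44220 and 40660 CPM in shCTL and 27520 and 18660 CPM in shHrs cultures of batch 1. In batch 2 it was 14790 and 12630 CPM in shCTL and 18840 and 22760 CPM in shHrs cultures. The groups did not overlap in either batch, and the order of the groups was opposite. The shCTL cultures of the batches themselves differed: batch 1 stood above batch 2 without overlap for 30 of 37 members with at least 10 counts in 2 of these 4 libraries, against 21.9% of 12585 genes, and below it for Slc2a3 and Pfkfb3, against 25.1% of genes. The median ratio of batch 1 to batch 2 was 2.88 over these members and 0.993 over all those genes. With shHrs, the batches held 18660 to 27520 and 18840 to 22760 CPM of the enzymes.

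**Figure D1:**
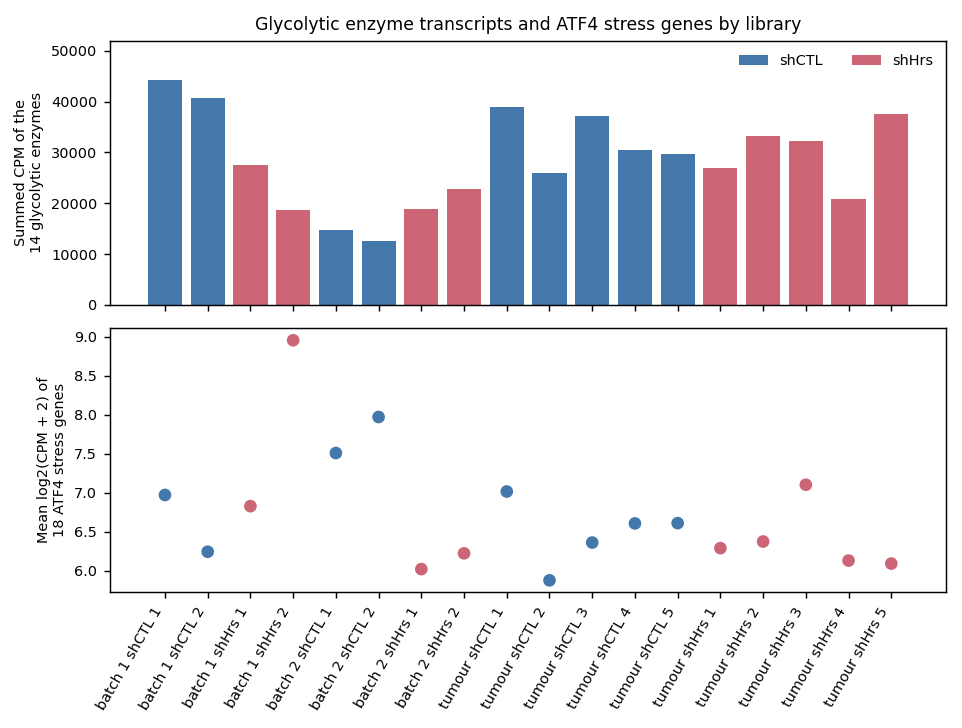
Upper panel: summed level of the 14 glycolytic enzymes in CPM (vertical axis) in each of the 18 libraries (horizontal axis), blue for shCTL and red for shHrs, 1 bar per library and no error bars. Lower panel: mean log2(CPM + 2) of 18 genes of the ATF4 stress response in the same libraries. The shCTL cultures of batch 1 reach 40660 and 44220 CPM and those of batch 2 12630 and 14790 CPM, and the second shHrs culture of batch 1 has the highest ATF4 mean, 8.95.

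By counts, 30 of the 38 members tested in batch 1 had a negative log2 fold change, with a median of -0.77 against 0.0073 over all 12897 genes. In 27 members both shHrs libraries lay below both shCTL libraries (background 16.8% of genes), and in Angptl4 alone both lay above (background 15.3%). None was called by edgeR at an adjusted p of 0.05, as was no gene at all (0% called). At an unadjusted p under 0.05 there were 26 members and 1210 genes. In all that follows, a call without a named tool is edgeR's. DESeq2 called 12 members lower and 1 higher among 220 genes, with Ankrd37, Egln3, Bnip3 and Stc1 at the smallest adjusted p, and limma voom called 0 of both. Without batch 1 shHrs replicate 1, edgeR called 17 members lower and 5 higher among 1496 genes. Without shHrs replicate 2 it called 0 genes, and 35 members had a negative fold change with a median of -0.87.

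In batch 2, 20 of 38 members were negative and 18 positive in log2 fold change. Their median was -0.06, against -0.05 over all genes. Both shHrs libraries lay below both shCTL libraries in 14 members (background 34.7%) and above them in 16 (background 35%). Of 12897 genes, 2.43% were called lower and 1.6% higher, or 4.03% in all. Among the members, Vegfa, Ankrd37 and Stc1 fell and Angptl4 rose. These calls rest on every library of the batch: without any 1 of the 4, edgeR called 0 genes of all tested. Without batch 1 shHrs replicate 1 or 2, which enter the shared spread, it called 8 members lower and 3 higher. DESeq2 called Ankrd37, Pfkfb3, Stc1 and Vegfa lower and Angptl4, Pfkl and Slc2a1 higher in batch 2, among 1988 genes. Limma voom called Stc1 and Vegfa lower and Angptl4 higher there. By edgeR the direction was the same in both batches for 16 members, with 14 lower in both and Angptl4 and Kdm3a higher in both. It was lower in batch 1 and higher in batch 2 for 16 members, 10 of them glycolytic enzymes, and the reverse for 6.

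The difference between the batches' effects (batch 2 minus batch 1) was positive in 28 of 38 members, with a median of 1.005 on the log2 scale against -0.04 over all genes. Of 12897 genes 0.155% were called in this test (0.132% higher, 0.0233% lower), and of the members 0. The smallest adjusted p among members was 0.0789, for Hilpda, and 22 members had an unadjusted p under 0.05. DESeq2 called 2 members lower, Pfkfb3 and Vegfa. It called 11 higher: Aldoa, Egln3, Gapdh, Higd1a, Hilpda, Ldha, Pfkl, Pgam1, Pgk1, Pkm and Slc2a1. Limma voom called 0. Without batch 1 shHrs replicate 1 edgeR called 6 members lower and 17 higher, and without replicate 2 it called 1 lower and 4 higher. With batch as a term, over both batches, edgeR called 0 of 12617 genes (0% called), 1680 at an unadjusted p under 0.05. There 31 of 38 members were negative, with a median of -0.41 against -0.02 over all genes, and 11 had an unadjusted p under 0.05. DESeq2 called 4 members lower and 1 higher among 301 genes, and limma voom 0 members among 5 genes. Without batch 1 shHrs replicate 1 edgeR called 2 members lower and 1 higher among 164 genes.

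Both batches also differed in genes outside the module. Over 18 genes of the ATF4 stress response, which cells switch on when protein folding or amino acid supply fails, mean log2(CPM + 2) was 6.97 and 6.24 in shCTL and 6.83 and 8.95 in shHrs cultures of batch 1. It was 7.51 and 7.97 in shCTL and 6.02 and 6.22 in shHrs cultures of batch 2. All 18 had a positive fold change in batch 1 (median 1.41, 0 called, 11 at an unadjusted p under 0.05, background 0% called), and 17 a negative one in batch 2, where Chac1, Slc7a5, Mthfd2, Trib3 and Atf4 were called lower. Of 12 cell division genes, 8 fell in batch 2, among them Tpx2, Kif11, Ccnb1, Bub1 and Ccna2. These calls stand beside 2.43% of all genes called lower there, and like all calls in batch 2 they ended without any 1 of its 4 libraries. The sum of the 12 went from 2205 and 1402 CPM in shCTL to 429.5 and 323.7 CPM in shHrs cultures. In batch 1 that sum was 1994 and 2802 CPM in shCTL and 2592 and 1178 CPM in shHrs cultures. The melanocyte lineage sum in batch 2 was 13850 and 11580 CPM with shCTL and 5219 and 4331 CPM with shHrs, with 0 of 7 genes called. The part of these in the members' values was not tested.

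Hexokinases, the entry step that traps glucose in the cell, had negative fold changes in both batches. By edgeR neither was called, and DESeq2 called Hk1 lower in batch 1 (-1.43, adjusted p 0.00337). Hk1 stood at 525 and 421 CPM with shCTL and 222 and 127 CPM with shHrs in batch 1, and at 145 and 144 CPM with shCTL and 149 and 129.8 CPM with shHrs in batch 2. Its log2 fold change was -1.44 (SE 0.31) in batch 1 and -0.10 (SE 0.30) in batch 2, where the groups overlapped. Hk2, the inducible form, stood at 309.6 and 285 CPM with shCTL and 201 and 317 CPM with shHrs in batch 1, and at 124 and 123 CPM with shCTL and 80.3 and 68.8 CPM with shHrs in batch 2. In batch 1 the groups overlapped for Hk2, with the second shHrs culture the highest and the first the lowest of the 4. In batch 2 both shHrs cultures were below both shCTL cultures, -0.77 (SE 0.26), and the change was not called.

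Of the enzymes that isomerise and phosphorylate the sugar phosphates, Gpi1 and Pfkl were negative in batch 1 and positive in batch 2. Pfkp was negative in both, and edgeR called no difference between batches for these enzymes. Gpi1, glucose phosphate isomerase, stood at 2728 and 1832 CPM with shCTL and 1224 and 648 CPM with shHrs in batch 1, and at 683 and 648 CPM with shCTL and 703 and 696 CPM with shHrs in batch 2. It was -1.28 (SE 0.35) in batch 1 and 0.024 (SE 0.34) in batch 2. Pfkl, the liver-type phosphofructokinase of the committed step, stood at 815 and 814 CPM with shCTL and 554 and 269.9 CPM with shHrs in batch 1, and at 186 and 152 CPM with shCTL and 339 and 386 CPM with shHrs in batch 2. Its log2 fold change was -0.98 (SE 0.34) in batch 1 and 1.05 (SE 0.34) in batch 2 (edgeR adjusted p 0.48 and 0.1). The gap between batches was the widest among the enzymes at 2.03 (SE 0.49), with an edgeR adjusted p of 0.0966. DESeq2 called Pfkl higher in batch 2 (1.09, adjusted p 0.0276) and for that gap (2.06, adjusted p 0.00315). Pfkp, the platelet-type form, stood at 589.6 and 316 CPM with shCTL and 243 and 139 CPM with shHrs in batch 1, and at 151 and 125 CPM with shCTL and 101 and 111 CPM with shHrs in batch 2. It lay lower with shHrs in both batches, without overlap.

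Aldolases split fructose bisphosphate. Aldoa stood at 4820 and 3698 CPM with shCTL and 2982 and 2465 CPM with shHrs in batch 1, and at 1856 and 1687 CPM with shCTL and 2532 and 3432 CPM with shHrs in batch 2. Aldoc, a form known from brain and induced by hypoxia, stood at 126 and 51.7 CPM with shCTL and 45.5 and 8.48 CPM with shHrs in batch 1, and at 35.4 and 24.1 CPM with shCTL and 18.4 and 20.9 CPM with shHrs in batch 2. Aldoa was -0.65 (SE 0.26) and 0.70 (SE 0.26) in batches 1 and 2, and Aldoc was -1.71 (SE 0.71) and -0.65 (SE 0.70). Only the direction of Aldoa differed between batches, and the difference was not called for either (1.35 (SE 0.37) and 1.06 (SE 0.98), adjusted p 0.122 and 0.57). Tpi1, triose phosphate isomerase, stood at 2942 and 2917 CPM with shCTL and 2223 and 1540 CPM with shHrs in batch 1, and at 1090 and 979 CPM with shCTL and 1285 and 1709 CPM with shHrs in batch 2, which is -0.64 (SE 0.27) in batch 1 and 0.48 (SE 0.27) in batch 2.

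The lower, energy-yielding steps had the same direction within each batch, negative in batch 1 and positive in batch 2, with no call by edgeR. DESeq2 called Pgk1 lower in batch 1 (adjusted p 0.033). Gapdh (chromosome 6, 125161715 to 125166467), which oxidises the triose and is often used as a reference gene, stood at 14300 and 12920 CPM with shCTL and 8077 and 5707 CPM with shHrs in batch 1, and at 4446 and 3684 CPM with shCTL and 5813 and 7036 CPM with shHrs in batch 2. Its log2 fold change was -0.98 (SE 0.27) in batch 1 and 0.61 (SE 0.27) in batch 2, adjusted p 0.363 and 0.184, and the difference of 1.59 (SE 0.38) had an adjusted p of 0.0966. Pgk1 (chromosome X, 106187100 to 106203699), the first step that yields ATP, stood at 4355 and 3983 CPM with shCTL and 2365 and 1881 CPM with shHrs in batch 1, and at 1442 and 1356 CPM with shCTL and 1596 and 2084 CPM with shHrs in batch 2. It was -0.98 (SE 0.25) in batch 1 and 0.35 (SE 0.24) in batch 2. Neither enzyme's groups overlapped in either batch.

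Pkm, pyruvate kinase, the last step before pyruvate, stood at 6984 and 6937 CPM with shCTL and 4983 and 2875 CPM with shHrs in batch 1, and at 2666 and 1782 CPM with shCTL and 3244 and 3859 CPM with shHrs in batch 2. Ldha, which turns pyruvate into lactate, stood at 3449 and 4146 CPM with shCTL and 2613 and 1324 CPM with shHrs in batch 1, and at 1205 and 959 CPM with shCTL and 1628 and 2014 CPM with shHrs in batch 2. Both lay lower without overlap in batch 1 and higher without overlap in batch 2: Pkm was -0.83 (SE 0.33) and 0.62 (SE 0.33), and Ldha -0.95 (SE 0.35) and 0.70 (SE 0.35). Pgam1 and Eno1, the mutase and enolase between Pgk1 and Pkm, did the same, at -0.66 (SE 0.23) and 0.58 (SE 0.23) for Pgam1 and -0.51 (SE 0.28) and 0.50 (SE 0.28) for Eno1. Per kilobase of annotated exon, mean shCTL levels in batch 1 ran from 27.3 CPM per kb for Aldoc to 3293 for Gapdh among the enzymes. Glycolytic enzymes have many processed pseudogenes, and the sources used here do not say how reads shared with such copies were counted, which leaves their levels uncertain.

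**Figure D2:**
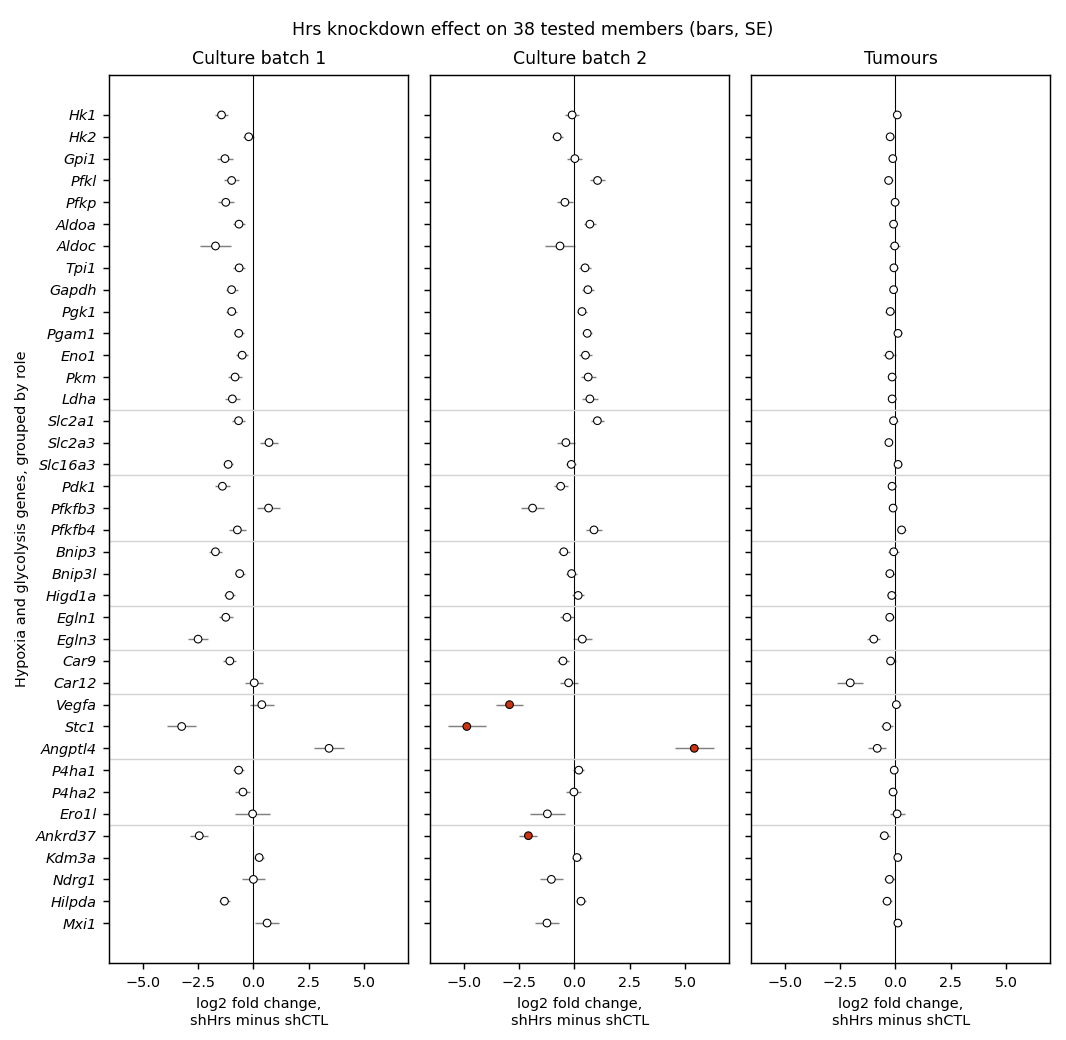
Log2 fold change, shHrs minus shCTL (horizontal axis), for the 38 tested members (rows, grouped by role with grey lines between) in culture batch 1, culture batch 2 and tumours. Points are edgeR estimates, bars are 1 SE, and filled red points passed an adjusted p of 0.05, which held for Vegfa, Stc1, Angptl4 and Ankrd37 in batch 2.

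Transporters and flux-steering kinases varied more. Slc2a1, the main glucose importer of growing cells, stood at 169.9 and 189 CPM with shCTL and 80.4 and 148 CPM with shHrs in batch 1, and at 48.5 and 46.8 CPM with shCTL and 102 and 101 CPM with shHrs in batch 2. It was -0.67 (SE 0.28) in batch 1 and 1.04 (SE 0.29) in batch 2, without overlap in either. The batches' effects differed by 1.71 (SE 0.40) (edgeR adjusted p 0.0958). DESeq2 called Slc2a1 higher in batch 2 (1.08, adjusted p 0.0137) and for that difference (1.74, adjusted p 0.00643). Slc16a3, the exporter of lactate, stood at 269.5 and 251 CPM with shCTL and 131 and 106 CPM with shHrs in batch 1, and at 61.6 and 55.4 CPM with shCTL and 52.4 and 57.7 CPM with shHrs in batch 2. It was lower in batch 1 (-1.14 (SE 0.22)) and overlapped in batch 2 (-0.14 (SE 0.22)). Slc2a3, a high-affinity glucose importer, ranged from 30.0 to 75.5 CPM over the 8 cultures, with the second shHrs culture of batch 1 the highest, at fold changes of 0.70 and -0.38.

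Pdk1, which shuts pyruvate out of the mitochondrial cycle by inhibiting pyruvate dehydrogenase, stood at 207 and 132 CPM with shCTL and 80.6 and 47.97 CPM with shHrs in batch 1, and at 53.03 and 49.4 CPM with shCTL and 33.2 and 35.8 CPM with shHrs in batch 2. It lay lower with shHrs in both batches, -1.40 (SE 0.32) and -0.62 (SE 0.32). Pfkfb3, which makes the activator of phosphofructokinase, stood at 51.6 and 52.8 CPM with shCTL and 37.7 and 133 CPM with shHrs in batch 1, and at 69.9 and 106 CPM with shCTL and 29.3 and 19.6 CPM with shHrs in batch 2. It overlapped in batch 1 and was -1.89 (SE 0.52) in batch 2, edgeR adjusted p 0.0732. DESeq2 called Pfkfb3 lower in batch 2 (-1.85, adjusted p 0.00437). Pfkfb4, a related enzyme with stronger phosphatase activity, stood at 13.2 and 7.72 CPM with shCTL and 7.16 and 5.58 CPM with shHrs in batch 1, and at 10.3 and 6.72 CPM with shCTL and 15.6 and 16.9 CPM with shHrs in batch 2. Its fold changes were -0.72 (SE 0.37) and 0.89 (SE 0.37), opposite to those of Pfkfb3 in both batches.

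Mitochondrial targets stood lower in batch 1. Bnip3 (chromosome 7, 138890836 to 138909519), a receptor that marks mitochondria for removal by autophagy, stood at 426 and 274 CPM with shCTL and 99.8 and 115 CPM with shHrs in batch 1, and at 95.1 and 84.4 CPM with shCTL and 56.3 and 77.2 CPM with shHrs in batch 2. Its log2 fold change was -1.71 (SE 0.28) in batch 1, with the smallest adjusted p of any member there together with Ankrd37 (0.149 for both), and -0.48 (SE 0.28) in batch 2. Bnip3l, a relative with the same task, stood at 163 and 152 CPM with shCTL and 86.9 and 119.6 CPM with shHrs in batch 1, and at 73.4 and 91.9 CPM with shCTL and 77.4 and 79.3 CPM with shHrs in batch 2, at -0.62 (SE 0.23) and -0.12 (SE 0.23). Higd1a, a small protein of the respiratory chain, stood at 215 and 162 CPM with shCTL and 81.2 and 98.7 CPM with shHrs in batch 1, and at 67.98 and 62.1 CPM with shCTL and 60.1 and 91.6 CPM with shHrs in batch 2. The 3 were all lower without overlap in batch 1, and in batch 2 only Bnip3 kept groups apart. Exons of Bnip3 and Higd1a overlap predicted genes on the opposite strand over 22.3% and 22.5% of their length, and without a stated strand setting such reads cannot be told apart.

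The HIF hydroxylases are themselves HIF targets. Egln1, the main oxygen sensor, stood at 175 and 121 CPM with shCTL and 79.9 and 44.8 CPM with shHrs in batch 1, and at 58.9 and 50.1 CPM with shCTL and 41.8 and 47.6 CPM with shHrs in batch 2. It was -1.25 (SE 0.33) in batch 1 and -0.33 (SE 0.33) in batch 2, lower without overlap in both. Egln3 (chromosome 12, 54178981 to 54203860), a strongly hypoxia-induced form, stood at 31.4 and 26.9 CPM with shCTL and 7.54 and 2.79 CPM with shHrs in batch 1, and at 8.89 and 8.09 CPM with shCTL and 10.3 and 12.2 CPM with shHrs in batch 2. It was -2.50 (SE 0.45) in batch 1 and 0.36 (SE 0.43) in batch 2, adjusted p 0.18 and 0.611. The difference between the batches was 2.85 (SE 0.62), adjusted p 0.082. Of carbonic anhydrases, which take part in the control of pH, Car9 stood at 23.8 and 18.4 CPM with shCTL and 10.9 and 9.36 CPM with shHrs in batch 1, and at 9.44 and 10.3 CPM with shCTL and 6.22 and 8.11 CPM with shHrs in batch 2, at -1.06 (SE 0.29) and -0.51 (SE 0.29). Car12 ranged from 4.02 to 7.57 CPM over the cultures, and its groups overlapped in both batches.

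Secreted factors held 3 of the 4 members called in batch 2. Vegfa (chromosome 17, 46016993 to 46032369), the growth factor of blood vessels, stood at 272 and 203 CPM with shCTL and 117 and 512 CPM with shHrs in batch 1, and at 178 and 249 CPM with shCTL and 28.3 and 29.7 CPM with shHrs in batch 2. Batch 1 was split, with the second shHrs culture above and the first below both shCTL cultures. In batch 2 Vegfa fell, -2.93 (SE 0.59), adjusted p 0.0382, and both shHrs libraries were far below the other 6 cultures. Leaving out batch 1 shCTL replicate 1 (adjusted p 0.0531), replicate 2 (0.0534) or any batch 2 library ended that call, and over all alternatives the adjusted p ran from 7.44e-08 to 0.324. Within the fit the batches' effects on Vegfa differed by -3.31 (SE 0.80), adjusted p 0.0966.

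Stc1 (chromosome 14, 69029238 to 69041804), a secreted glycoprotein, was at low level, 7.93 and 3.64 CPM with shCTL and 0.538 and 0.686 CPM with shHrs in batch 1, and at 1.37 and 1.25 CPM with shCTL and 0 and 0.0751 CPM with shHrs in batch 2. It was lower with shHrs in each batch, with 268 counts against 24 in batch 1 and 60 against 2 in batch 2. Stc1 fell in batch 2, -4.86 (SE 0.87), adjusted p 0.0297 (3.47e-05 to 0.289 over alternatives). The ratio of pooled rates was 31.1-fold (8.23 to 262 by an exact 95% interval of counting error only). In batch 1 it was -3.24 (SE 0.65), adjusted p 0.194. Angptl4 (chromosome 17, 33773750 to 33781830), a secreted inhibitor of lipoprotein lipase that is also a target of lipid-sensing receptors, went the other way at 0.157 and 0.276 CPM with shCTL and 2.10 and 2.55 CPM with shHrs in batch 1, and at 0.0456 and 0 CPM with shCTL and 1.10 and 1.31 CPM with shHrs in batch 2. It had 9 counts against 91 in batch 1 and 1 against 58 in batch 2, a 56.0-fold higher pooled rate with a counting interval of 9.66 to 2250. Angptl4 rose in batch 2, 5.41 (SE 0.89), adjusted p 0.0259 (0.000135 to 0.289), and in batch 1 was 3.42 (SE 0.66), adjusted p 0.194. For counts this low the fitted fold change depends on edgeR's prior count. The batch 2 calls of Stc1 and Angptl4 ended without any 1 of the 4 batch 2 libraries. Stc2 had 0 counts in all 8 cultures.

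Of the 3 enzymes of collagen hydroxylation and disulfide formation, edgeR, DESeq2 and limma voom called 0 in either batch, and by edgeR P4ha1 in batch 1 had an unadjusted p of 0.031. Ero1l, which forms disulfide bonds in the endoplasmic reticulum, stood at 1044 and 760.1 CPM with shCTL and 161 and 1635 CPM with shHrs in batch 1, and at 385 and 628 CPM with shCTL and 218 and 232 CPM with shHrs in batch 2. The second shHrs culture of batch 1 was the highest of the 8 and the first the lowest. In batch 2 Ero1l was lower without overlap, -1.22 (SE 0.80), adjusted p 0.349. P4ha1, a collagen prolyl hydroxylase subunit, stood at 245 and 223 CPM with shCTL and 122 and 176 CPM with shHrs in batch 1, and at 105 and 142 CPM with shCTL and 134 and 159.6 CPM with shHrs in batch 2, at -0.67 (SE 0.26) and 0.20 (SE 0.26). Its relative P4ha2 overlapped in both batches, at -0.47 (SE 0.34) and -0.02 (SE 0.34). Hk2, Pfkfb3, Vegfa, Ero1l, Ndrg1 and Mxi1 were the 6 members for which the first shHrs culture of batch 1 lay below and the second above both shCTL cultures. That second library was also the one with the ATF4 mean of 8.95, and the part of that difference in these values was not tested.

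Ankrd37 (chromosome 8, 45996902 to 46005707), an ankyrin repeat protein known as a direct HIF target, stood at 20.7 and 13.9 CPM with shCTL and 2.53 and 3.87 CPM with shHrs in batch 1, and at 5.56 and 3.96 CPM with shCTL and 1.24 and 1.09 CPM with shHrs in batch 2. It was lower without overlap in both batches, -2.44 (SE 0.40) in batch 1 (adjusted p 0.149) and -2.08 (SE 0.41) in batch 2, where it fell with an adjusted p of 0.0358. Over both batches it was -2.27 (SE 0.29), with the smallest adjusted p of any member there, 0.068. The batch 2 call ended by limma voom (0.0522), with a replicate block (0.054) and without any batch 2 library, and ran from 0.000467 to 0.324 over alternatives. Exons of Ankrd37 overlap those of Lrp2bp on the opposite strand over 22.7% and of Ufsp2 over 3.7% of their length, so part of its counts cannot be told apart from theirs.

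Hilpda, a protein of lipid droplets that inhibits fat breakdown, stood at 54.8 and 43.96 CPM with shCTL and 18.6 and 21.6 CPM with shHrs in batch 1, and at 14.3 and 15.98 CPM with shCTL and 17.3 and 21.3 CPM with shHrs in batch 2. It was -1.31 (SE 0.24) and 0.30 (SE 0.24), a difference of 1.60 (SE 0.34). Ndrg1, a stress-induced gene that slows growth, stood at 227 and 147 CPM with shCTL and 79.6 and 299.7 CPM with shHrs in batch 1, and at 155 and 152 CPM with shCTL and 77.4 and 76.8 CPM with shHrs in batch 2. Mxi1, an antagonist of Myc, stood at 70.3 and 39.9 CPM with shCTL and 36.4 and 135 CPM with shHrs in batch 1, and at 61.5 and 81.8 CPM with shCTL and 28.6 and 34.3 CPM with shHrs in batch 2. Both overlapped in batch 1 and lay lower without overlap in batch 2, -1.04 (SE 0.51) and -1.24 (SE 0.54), without a call. Kdm3a, a histone demethylase, ranged from 119 to 258 CPM, at 0.26 (SE 0.24) and 0.12 (SE 0.24).

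**Figure D3:**
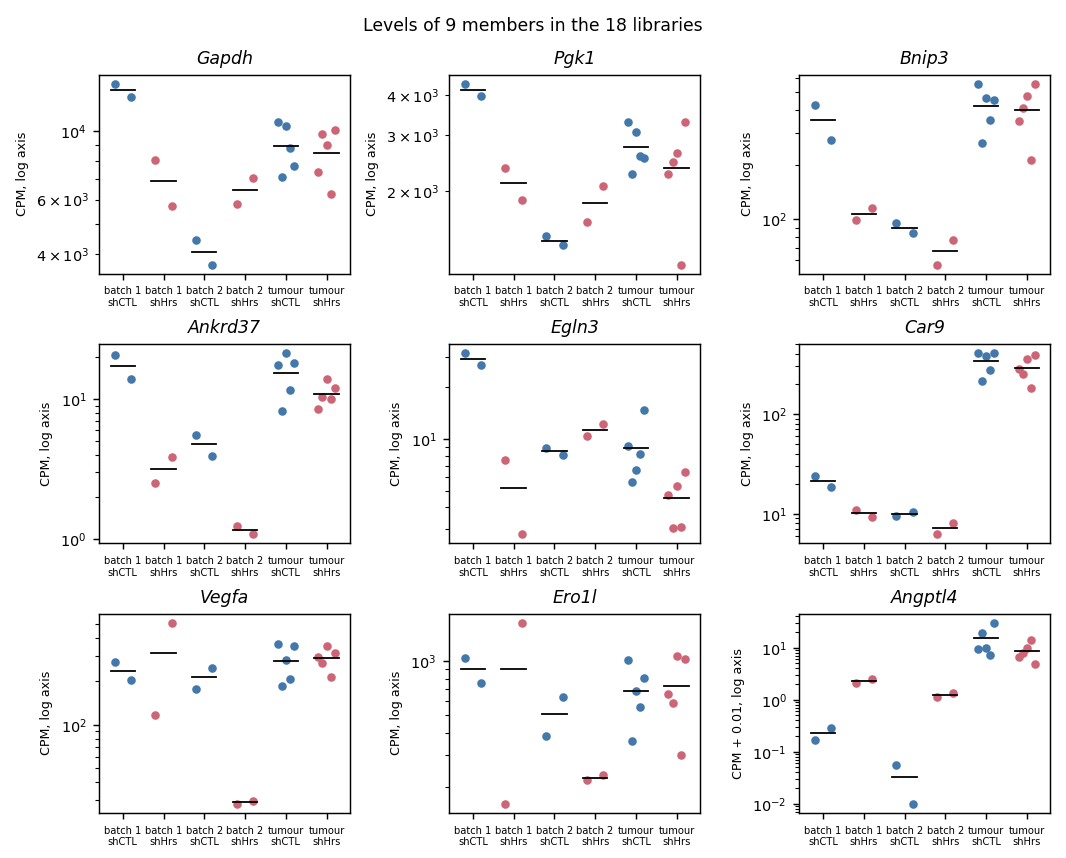
Levels of 9 members in CPM (vertical log axis, and CPM + 0.01 for Angptl4) in the 6 groups (horizontal axis), 1 point per library, with a line at the group mean, blue for shCTL and red for shHrs. Gapdh and Pgk1 stand lower with shHrs in batch 1 and higher in batch 2, Vegfa lies at 28.3 and 29.7 CPM in the shHrs cultures of batch 2, and Car9 spans 181 to 409 CPM in tumours against 6.22 to 23.8 CPM in cultures.

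In tumours edgeR called no member with the knockdown. Of 38 tested members 30 were negative and 8 positive in log2 fold change. Their median was -0.13, against 0.0075 over all 13215 genes. For the 14 glycolytic enzymes the range was -0.30 to 0.12. By edgeR 0.545% of genes were called, 0.31% lower and 0.235% higher. Only Car12, Egln3 and Slc2a3 had an unadjusted p under 0.05, against 1868 genes. DESeq2 called Egln3 lower (-0.97, adjusted p 0.0433) and limma voom 0 members. In no member did the 5 shHrs libraries lie wholly below or above the 5 shCTL libraries, a pattern found lower in 2.28% and higher in 2% of genes. A tumour library mixes cell types, and fewer cells of a type and less RNA per cell cannot be told apart.

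The 2 largest differences were in genes of low level. Car12 (chromosome 9, 66713686 to 66766845) stood at 1.55, 0.792, 2.58, 2.82 and 1.99 CPM in shCTL tumours and 0.570, 0.156, 0.947, 0.0504 and 0.611 CPM in shHrs tumours. All but 1 shCTL tumour lay above every shHrs tumour, -2.04 (SE 0.58), on 177 counts against 54, with an adjusted p of 0.14 (0.106 to 0.307 over alternatives). Egln3 stood at 9.08, 5.59, 6.62, 8.11 and 14.8 CPM in shCTL tumours and 4.70, 3.02, 5.33, 3.08 and 6.43 CPM in shHrs tumours. The groups overlapped by 1 shHrs and 1 shCTL library at their edges, -0.97 (SE 0.30), adjusted p 0.158. Slc2a3 stood at 35.1, 22.4, 31.3, 23.8 and 28.2 CPM in shCTL tumours and 22.3, 23.01, 23.2, 23.00 and 23.99 CPM in shHrs tumours, a spread that was narrow with shHrs, and was -0.29 (SE 0.12), adjusted p 0.301.

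Members called in cultures were not called in tumours. Ankrd37 stood at 17.4, 8.17, 21.3, 11.7 and 18.2 CPM in shCTL tumours and 8.54, 10.4, 13.8, 9.99 and 11.97 CPM in shHrs tumours, -0.49 (SE 0.24), adjusted p 0.388. Vegfa stood at 366, 186, 280.1, 208 and 355 CPM in shCTL tumours and 294, 269.9, 354, 216 and 314 CPM in shHrs tumours, 0.045 (SE 0.20). The groups of both overlapped widely. Stc1 stood at 19.9, 15.7, 17.7, 12.3 and 19.3 CPM in shCTL tumours and 16.4, 14.7, 8.82, 6.25 and 18.9 CPM in shHrs tumours, -0.39 (SE 0.27). Angptl4 stood at 9.42, 19.2, 10.1, 7.13 and 30.3 CPM in shCTL tumours and 6.69, 8.07, 9.77, 14.1 and 4.76 CPM in shHrs tumours, -0.82 (SE 0.41), with the second and the fifth of the shCTL tumours the highest. Stc2, another secreted glycoprotein, had 24 counts in the shCTL and 31 in the shHrs tumours and was too low to be tested.

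Single tumour libraries stood apart over most of the module. The fourth shHrs tumour was the lowest of the 10 libraries for 23 of 38 members, and the second shCTL tumour was the lowest of its 5 for 33. Library 1 of shCTL and library 5 of shHrs were the highest of their 5 for 26 and 28 members. Gapdh, for example, stood at 10710, 7105, 10390, 8834 and 7721 CPM in shCTL tumours and 7382, 9823, 9045, 6249 and 10090 CPM in shHrs tumours, and Pgk1 at 3303, 2272, 3075, 2586 and 2550 CPM in shCTL tumours and 2259, 2471, 2635, 1175 and 3292 CPM in shHrs tumours. Without the fourth shHrs tumour the members' median was -0.04 with 25 negative, without the second shCTL tumour it was -0.22 with 33 negative, and edgeR called 0 members in either case. Marker sums of other cell types are given beside these. Over 10 macrophage genes the fourth shHrs tumour had the highest sum, 997.7 CPM, against 39.01 to 592.1 CPM in shCTL and 216.5 to 365.1 CPM in the other shHrs tumours. Over 10 skeletal muscle genes it had 910 CPM, against 10.95 to 216.8 CPM in shCTL and 33.36 to 359.6 CPM in the other shHrs tumours. The second shCTL tumour had 421.4 and 31.6 CPM for these lists, within the range of the other shCTL tumours. Fibroblast sums were 290.1 to 3156 CPM in shCTL tumours, with 1926 CPM in the second, and 265.8 to 1863 CPM in shHrs tumours, with the highest in the fourth. Of 8 endothelial genes 4 had a negative and 4 a positive fold change with shHrs, with a median of -0.03. Only Vwf was called by edgeR, higher at 1.01 (SE 0.13), adjusted p 0.00739. The endothelial sums were 150.7 to 200.6 CPM in shCTL and 169.1 to 269.6 CPM in shHrs tumours. By edgeR all 10 macrophage and all 10 muscle genes had a positive fold change with shHrs, 0 called (0 and 5 at an unadjusted p under 0.05). The 3 tested erythroid genes had a negative one, 0 called (3 at an unadjusted p under 0.05), with sums of 57.5 to 1848 CPM in shCTL and 27.7 to 146.1 CPM in shHrs tumours. The melanocyte lineage sum was 20000 to 27470 CPM in the 10 tumours. The part of these cell types in the members' values was not tested.

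**Figure D4:**
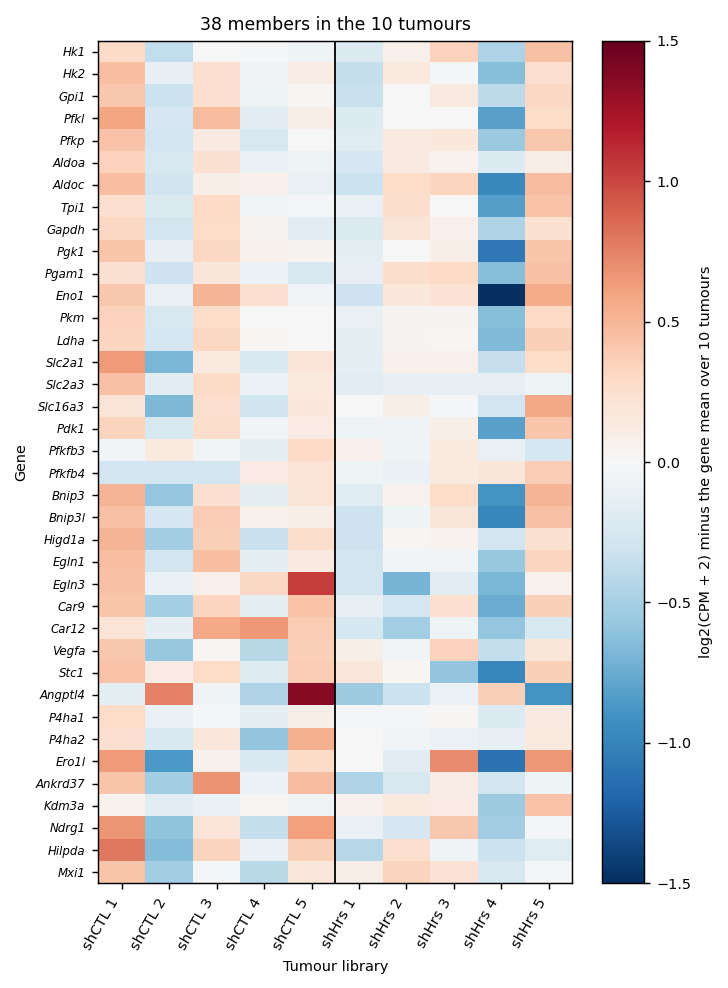
Colours give log2(CPM + 2) of each of 38 members (rows) minus its mean over the 10 tumours, for the 5 shCTL and 5 shHrs libraries (columns), red for above and blue for below the mean, with the black line between the groups. The columns of the second shCTL and the fourth shHrs tumour are blue in most rows, and columns 1 of shCTL and 5 of shHrs are mostly red.

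A fit of all 18 libraries tested whether the fold change with the knockdown differed between tumours and cultures (the tumour effect minus the average of the batch effects). Tumour RNA includes that of host cells, which kept their own Hgs, and their part in these differences was not tested. Of 14458 genes 2.12% were called higher and 1.49% lower, 3.61% in all, and of the 39 members Stc1 and Ankrd37 were called higher and Angptl4 lower. For Stc1 the tumour effect exceeded the culture effect by 3.63 (SE 0.58), adjusted p 0.00584. For Ankrd37 it did so by 1.74 (SE 0.37), adjusted p 0.0195. Angptl4 was higher with shHrs in cultures and -0.82 (SE 0.41) in tumours, a difference of -5.26 (SE 0.77), adjusted p 0.00301. Its culture effect rested on 9 shCTL against 91 shHrs counts in batch 1 and 1 against 58 in batch 2. The tumours highest in Angptl4 were the fifth and second shCTL and the fourth shHrs tumour. Over 6 adipocyte genes these had sums of 135.5, 82.94 and 101.2 CPM, against 24.05 to 47.88 CPM in the others. The part of such cells in Angptl4 was not tested. The call of Stc1 ended by limma voom (0.0536), and that of Ankrd37 without batch 1 shCTL replicate 1 (0.0543), batch 2 shCTL replicate 1 (0.0583) or batch 2 shHrs replicate 2 (0.0757). The call of Angptl4 held under all 24 alternatives (4.31e-06 to 0.0462). The remaining 36 members were not called, with Hk1 the nearest at 0.84 (SE 0.28), adjusted p 0.0913. The median over members was 0.16, against 0.015 over all genes. Hgs itself was lowered further in tumours, by a difference of -0.82 (SE 0.21), adjusted p 0.0407.

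Levels of the members in shCTL tumours were also set beside those in shCTL cultures, with no knockdown. The sample labels used here name no sequencing run, and kind of sample cannot be told apart from any difference in handling or run. This holds for every value in this comparison. Of 14458 genes 28.3% were called higher and 22.6% lower in tumours, 50.9% in all, and of the 39 members 22 were higher and 4 lower, with a median of 0.59 against 0.05. Car9 (chromosome 4, 43506966 to 43513729), a carbonic anhydrase of the cell surface used as a marker of tumour hypoxia, stood at 408, 215, 381, 275 and 408 CPM in shCTL tumours and 280.1, 253, 359.5, 181 and 389.5 CPM in shHrs tumours. Against 9.44 to 23.8 CPM in the 4 shCTL cultures this was 4.54 (SE 0.26), adjusted p 4.4e-09, without overlap. Of secreted factors, Angptl4 was 7.62 (SE 0.64) and Stc1 2.62 (SE 0.34). Stc2 was called on 24 counts in the shCTL tumours against 0 in the shCTL cultures. Vegfa was not called, 0.31 (SE 0.31). Tumours hold other cell types than cultures, with, for the first named markers, 11796 counts of C1qa and 5881 of Myh1 in the 10 tumours, and their part was not tested.

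With the same limit on kind of sample, 2 of the 3 transporters and all 3 mitochondrial genes were called higher in tumours, beside 28.3% of all genes. Slc2a3 was not called, -0.37 (SE 0.21). Slc2a1 stood at 348, 138, 248, 191 and 257 CPM in shCTL tumours and 202, 237, 237, 175 and 271 CPM in shHrs tumours, 1.35 (SE 0.23) above cultures. Slc16a3 stood at 341, 185, 352, 241 and 329.7 CPM in shCTL tumours and 295, 315, 290.3, 242 and 442 CPM in shHrs tumours, 1.23 (SE 0.20). Bnip3 stood at 558, 262, 466, 353 and 453 CPM in shCTL tumours and 347, 408, 476, 212 and 558 CPM in shHrs tumours, 1.24 (SE 0.26). For all 3 the shCTL tumours lay above both shCTL cultures of batch 2 and overlapped those of batch 1. Bnip3l stood at 276, 170, 266, 213 and 218 CPM in shCTL tumours and 164, 194, 232, 103 and 276 CPM in shHrs tumours (1.00 (SE 0.23)). Higd1a stood at 271, 132, 244, 150 and 228 CPM in shCTL tumours and 153, 192, 197, 155 and 223 CPM in shHrs tumours (0.89 (SE 0.21)). Egln1 stood at 332, 198, 333, 220.3 and 268 CPM in shCTL tumours and 200.3, 236, 237, 163 and 304 CPM in shHrs tumours, 1.59 (SE 0.22), above every shCTL culture. Its relative Egln3 was lower in tumours, -0.83 (SE 0.31), adjusted p 0.0335. For Egln3 the shCTL tumours lay below both shCTL cultures of batch 1 and overlapped those of batch 2.

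Among the enzymes, with the same limit on kind of sample, 8 of 14 were called higher and 0 lower, beside 28.3% and 22.6% of all genes. Hk2 stood at 504, 340, 435, 357 and 397 CPM in shCTL tumours and 287, 407, 364, 237 and 440.3 CPM in shHrs tumours, 1.09 (SE 0.18). Pfkl stood at 970.1, 539, 890.5, 574 and 687 CPM in shCTL tumours and 555, 645, 641, 363 and 778 CPM in shHrs tumours, 0.98 (SE 0.24). Aldoa stood at 5545, 3705, 5123, 4075 and 4153 CPM in shCTL tumours and 3668, 4806, 4538, 3783 and 4687 CPM in shHrs tumours, 0.72 (SE 0.15). For all 3 the 5 shCTL tumours lay above both shCTL cultures of batch 2, and for Hk2 also above those of batch 1. Gpi1 stood at 2382, 1444, 2154, 1713 and 1827 CPM in shCTL tumours and 1427, 1816, 1987, 1369 and 2240 CPM in shHrs tumours (0.63 (SE 0.20)). Pfkp stood at 533, 323, 434, 333 and 393 CPM in shCTL tumours and 348, 432, 442, 267 and 522 CPM in shHrs tumours (0.69 (SE 0.23)). Pkm stood at 6825, 4554, 6517, 5368 and 5374 CPM in shCTL tumours and 4967, 5508, 5516, 3440 and 6599 CPM in shHrs tumours (0.54 (SE 0.20)). For Pkm and Tpi1 all 5 shCTL tumours lay above both shCTL cultures of batch 2 and below both of batch 1, and for Gpi1, Pfkp and Ldha they lay above batch 2 and overlapped batch 1. Over the whole module, the 22 members called higher were all above batch 2 without overlap, and against batch 1 7 were above, 13 overlapped and 2 were below. The 4 members called lower were all below batch 1. Against batch 2, 3 of them were below and 1 overlapped. Of the called enzymes, Tpi1 had the smallest difference and Hk2 the largest. Ldha stood at 3638, 2437, 3614, 2957 and 2938 CPM in shCTL tumours and 2656, 2997, 2956, 1837 and 3727 CPM in shHrs tumours (0.62 (SE 0.21)). Tpi1 stood at 2809, 2042, 2905, 2294 and 2326 CPM in shCTL tumours and 2188, 2835, 2357, 1335 and 3185 CPM in shHrs tumours (0.51 (SE 0.20), adjusted p 0.0478). Hk1, Aldoc, Gapdh, Pgk1, Pgam1 and Eno1 were not called, with Hk1 at 437, 276, 356, 351 and 342 CPM in shCTL tumours and 307, 376, 455, 258 and 484 CPM in shHrs tumours and Aldoc at 114, 67.01, 89.1, 87.8 and 76.4 CPM in shCTL tumours and 66.1, 101, 104, 41.6 and 115 CPM in shHrs tumours.

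For the remaining targets the same limit on kind of sample applies. Pdk1 stood at 159, 106, 151, 122 and 137 CPM in shCTL tumours and 119, 121, 133, 70.4 and 169 CPM in shHrs tumours, 0.54 (SE 0.22), just past the threshold. Pfkfb3 stood at 31.6, 36.5, 31.6, 29.4 and 40.8 CPM in shCTL tumours and 34.6, 30.97, 36.3, 30.1 and 27.00 CPM in shHrs tumours, -0.99 (SE 0.25). Pfkfb4 stood at 3.48, 3.46, 3.52, 5.29 and 5.70 CPM in shCTL tumours and 4.38, 4.22, 5.38, 5.55 and 6.64 CPM in shHrs tumours, -1.14 (SE 0.23). Both of the latter, which set the level of fructose 2,6-bisphosphate, were lower in tumours, as was Car12 (-1.60 (SE 0.48)). P4ha1 stood at 278, 216, 226, 210.1 and 246 CPM in shCTL tumours and 227, 228, 233, 200.2 and 253 CPM in shHrs tumours (0.47 (SE 0.13)). Hilpda stood at 89.3, 31.6, 64.1, 46.95 and 65.5 CPM in shCTL tumours and 36.99, 60.8, 48.6, 40.1 and 44.4 CPM in shHrs tumours (1.12 (SE 0.23)). Ankrd37 was 0.76 (SE 0.26). Ero1l, Ndrg1 and Mxi1 were not called. Ero1l stood at 1018, 359, 681, 559 and 801 CPM in shCTL tumours and 652, 588, 1071, 302 and 1027 CPM in shHrs tumours, all within the range of the cultures. Ndrg1 stood at 186, 76.6, 134, 90.7 and 180 CPM in shCTL tumours and 109, 97.8, 155, 81.1 and 115 CPM in shHrs tumours. Mxi1 stood at 130, 67.01, 94.8, 72.5 and 109 CPM in shCTL tumours and 103, 122, 113, 81.8 and 95.2 CPM in shHrs tumours. Of the 26 calls, those of Ankrd37, Egln3, Gpi1, Ldha, Pdk1, Pfkp, Pkm and Tpi1 ended under at least 1 alternative (adjusted p of up to 0.19, for Pdk1 without batch 1 shCTL replicate 2), and 18 held under every alternative.

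Of the oxygen sensors and HIF factors above these targets, 1 was called with the knockdown, Hif3a in batch 2, where 1.6% of all genes were called higher. Hif1a, the main alpha subunit, stood at 238 and 214 CPM with shCTL and 277 and 282 CPM with shHrs in batch 1, and at 189.6 and 218 CPM with shCTL and 201 and 179 CPM with shHrs in batch 2. Epas1, its relative, stood at 16.6 and 9.54 CPM with shCTL and 10.7 and 2.69 CPM with shHrs in batch 1, and at 8.16 and 8.01 CPM with shCTL and 11.5 and 7.25 CPM with shHrs in batch 2. Arnt, their partner, and Vhl, which marks them for destruction, ranged from 62.6 to 97.4 and from 39.03 to 81.1 CPM over the cultures. The log2 fold changes of Hif1a were 0.30, -0.15 and -0.21 in batch 1, batch 2 and tumours, for Epas1 -0.97, 0.17 and -0.03, for Arnt -0.09, -0.34 and 0.12, and for Vhl -0.10, -0.49 and -0.16. Unadjusted p-values were all above 0.05, the smallest being 0.148 for Epas1 in batch 1. Of the 13 genes of this list, Hif3a, a HIF subunit that can act as a brake, rose in batch 2, 3.62 (SE 0.82), adjusted p 0.0495, from 0.27 and 0.38 CPM to 5.07 and 3.34 CPM. The edgeR counts at an adjusted p of 0.05 were 0 of 13 in batch 1, 0 of 12 in tumours and 0 of 13 in the difference between tumours and cultures (1 at an unadjusted p under 0.05 in each). In shCTL tumours beside shCTL cultures, with the limit on kind of sample given above, Hif1a was 0.86 (SE 0.18) and Epas1 1.64 (SE 0.28). Of the 13 genes 5 were called higher and 2 lower, beside 28.3% and 22.6% of all genes.

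Of 39 other genes known to be induced by hypoxia, 34 were tested in cultures. Their median was -0.69 in batch 1, against 0.0073 over all genes (25 negative, 0 called). In batch 2 it was -0.42, against -0.05 over all genes (22 negative). There 2 were called lower and 1 higher, beside 2.43% and 1.6% of all genes. Gbe1, the glycogen branching enzyme, stood at 168 and 154 CPM with shCTL and 47.3 and 49.8 CPM with shHrs in batch 1, and at 38.5 and 36.04 CPM with shCTL and 128 and 148 CPM with shHrs in batch 2. It rose in batch 2, 1.84 (SE 0.21), adjusted p 0.0208, and was -1.74 (SE 0.21) in batch 1. Of the lists named here it was the only gene called for the difference between batches, 3.58 (SE 0.30), adjusted p 0.019. The call for the difference ended without batch 1 shCTL replicate 2. Both calls of Gbe1 ended without any 1 of the batch 2 libraries. Selenbp1, a selenium-binding protein, fell in batch 2, -2.48 (SE 0.40), as did the cyclin Ccng2, -1.62 (SE 0.32), and in batch 1 they were -2.86 (SE 0.41) and -1.48 (SE 0.32). In tumours edgeR called 0 of 36 (5 at an unadjusted p under 0.05). For the tumour effect minus the culture effect Loxl2, Selenbp1 and Ccng2 were called higher, at 1.80 (SE 0.30), 2.29 (SE 0.46) and 1.06 (SE 0.25), beside 2.12% of all genes. Of 25 other genes of glycolysis and glucose transport, 17 were tested in cultures and 21 in tumours, and 0 were called in any knockdown comparison, with medians of -0.12, -0.15 and 0.14 in batch 1, batch 2 and tumours (5, 3 and 6 at an unadjusted p under 0.05). Of 26 genes of mitochondrial pyruvate use and the tricarboxylic acid cycle, 0 were called in any knockdown comparison either, with medians of -0.01, 0.10 and 0.05 (0, 3 and 2 at an unadjusted p under 0.05). DESeq2 and limma voom were not examined for these 3 lists.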

How the data were processed

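RNA-seq read counts per gene were taken as the authors deposited them, as whole-number counts for 23453 symbols in 18 libraries. Per the submitters' processing notes the reads were aligned with STAR 2.4.0h2 to mm10 and DESeq was used. No source used here names the read counter, the annotation or whether strand was used. Groups came from the sample labels. The members and the other gene lists were chosen with earlier results of these data known.

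Tests used edgeR 4.0.16 in R 4.3.3 on the counts: filterByExpr (minimum count 10, minimum total 15), TMM scaling, the quasi-likelihood F test, and Benjamini-Hochberg adjustment over all genes tested, with a threshold of 0.05. Cultures were fitted as 8 libraries, tumours as 10, and the tumour and culture contrasts as 18. Fold changes are log2, first group minus second. CPM used TMM factors of all 18 libraries, and means of log2 CPM a pseudocount of 2. Alternatives were DESeq2 1.42.0, limma 3.58.1 (voom), DESeq2's size factors, no filter, a stricter filter (mean log2 CPM of at least 1), smaller or larger fits, a replicate block, and each library left out in turn. The procedure was tested on simulated data.

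Values in every library are given for members called in any comparison or with a log2 fold change of at least 1 in size in a knockdown comparison, and for Gapdh, Pgk1 and Slc2a3, which were added after their values were seen. Exceptions are Car12 and Slc2a3 in cultures, given as ranges, and Stc2, given as pooled counts. From the other lists up to 5 called genes per comparison were named by smallest p, with Hif1a, Epas1, Arnt and Vhl always included.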

Additional observations from a re-analysis of the deposited data

Results flagged for a closer look

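The fold change with the knockdown differed between tumours and cultures, by edgeR's test of the difference itself, for 3 members and for Hgs. Tumour RNA includes that of host cells, which kept their own Hgs. For the members, another effect in the melanoma cells cannot be told apart from a share of host RNA. The difference on the log2 scale (tumour effect minus culture effect) was 3.63 for Stc1, 1.74 for Ankrd37 and -5.26 for Angptl4. For Hgs, the targeted gene, it was -0.82. Among 78 groups of tumour values looked at gene by gene, 0 held a library far enough from the others to be singled out. Such a look does not show a library that is shifted over many genes. The fourth shHrs tumour was the lowest of the 10 for 23 of 38 members.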

How the results depend on the processing

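With no filter on low counts edgeR called 74 genes over both batches (2 members lower, 1 higher), 438 in batch 1 (14 and 1), 2224 in batch 2 (7 and 3) and 1311 for the difference between batches (3 and 11). For these DESeq2 called 301 genes (4 and 1), 220 (12 and 1), 1988 (4 and 3) and 980 (2 and 11). It called 549 in tumours (1 lower) and 1410 for tumour minus culture effect (2 and 5). Limma voom called 5 genes over both batches, 13 for the difference between batches, and 1 member higher for tumour minus culture effect. The stricter filter left 0 members higher in batch 2. The fit of that batch's 4 libraries called 4303 genes (9 and 7), and the fit of all 18 libraries called 29 in tumours. The causes were not tested.

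Leaving out 1 library at a time gave 0 to 164 genes over both batches (0 to 2 members lower, 0 to 1 higher, median -0.449 to -0.245), 0 to 1496 in batch 1 (0 to 17, 0 to 5, -0.971 to -0.749) and 0 to 2732 in batch 2 (0 to 8, 0 to 3, -0.0695 to 0.00165). It gave 0 to 1968 for the difference between batches (0 to 6, 0 to 17, 0.851 to 1.29), 32 to 158 in tumours (0 members in every case, -0.23 to -0.0423), 125 to 2194 for tumour minus culture effect (1 to 2, 1 to 6, 0.0696 to 0.291) and 6254 to 8143 for shCTL tumours minus shCTL cultures (3 to 5, 15 to 25, 0.466 to 0.708). A group left with 1 culture was assumed to vary like the others. The difference between batches reversed without batch 1 shHrs replicate 2 for Ero1l (-2.005 to 1.245 over left-out libraries) and Ndrg1 (-1.651 to 0.1704). Of the single-gene values 1599 kept direction and side of the threshold, 144 newly passed it, 80 no longer passed it and 2 reversed.

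Same-numbered libraries did not deviate together (correlations of 0.175 in batch 1, 0.0229 in batch 2 and -0.588 to 0.462 in tumours), so the numbers were not taken as pairs. With a replicate block edgeR called 0 genes over both batches, 1 in batch 1, 464 in batch 2 (2 members lower, 1 higher) and 6 in tumours, and the adjusted p of Ankrd37 in batch 2 was 0.054. No paired analysis was possible because tumours and cultures share no animals or cultures, for shCTL tumours minus shCTL cultures. Depth limits Stc1, Stc2, Angptl4 and Car12 most.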
